A study of Arabidopsis thaliana with 25 samples.

Results

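ELF7 and SSRP1 were compared in the gene bodies of Arabidopsis thaliana, using the peak summits that the authors called for each factor over RNA polymerase II (RNAPII) phosphorylated at serine 2 of its carboxy-terminal domain (S2P). A protein-coding gene entered the comparison if at least 1 summit of either list lay between its ends. Of 27444 protein-coding genes, 4875 (17.8%) did. They fell into 2133 genes with summits of both factors, 2638 with SSRP1 only and 104 with ELF7 only. The remaining 22569 genes (82.2%) held neither. The genes were chosen by the presence of summits in these lists, so the counts of the 3 classes are descriptions and carry no test. All material was seedlings of the ecotype Col-0, taken whole, so that the calls average over the cell types of a seedling. Chromatin immunoprecipitation followed by sequencing had been done with antibodies raised against recombinant pieces of the elongation factors. The pair of lists rests on 10 of the 25 samples of the series: 4 ELF7, 4 SSRP1 and 2 S2P libraries. The other samples were libraries of SPT5, SPT16 and RNAPII phosphorylated at serine 5 (S5P), and 5 inputs. Plants grew in 16 h of light at 21 °C and 8 h of darkness at 18 °C. A treatment of 10 min at 44 °C is described under every sample, yet no sample label marks a sample as heated, so all libraries were taken as 1 condition.

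ELF7 is the Arabidopsis PAF1 protein, a subunit of the PAF1 complex, which travels with RNAPII and is needed for histone modifications laid down during transcription. SSRP1 and SPT16 together form FACT, a histone chaperone that loosens nucleosomes ahead of the polymerase and helps to restore them behind it. S2P marks RNAPII in productive elongation, whereas S5P is typical of the first stage of transcription. A summit over S2P was read as a place where the factor's signal exceeded that of S2P RNAPII, not as the factor's occupancy alone. The list names are read in this way, while the files do not state which library served as control. The same S2P libraries then stand behind both lists, and the calls of the 2 factors are not independent of each other.

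As deposited, the longer SSRP1 list covered nearly all genes with ELF7, while the shorter ELF7 list covered fewer than 50% of the genes with SSRP1. The ELF7 list had 2687 summits, of which 98.5% lay in protein-coding genes, and the SSRP1 list had 5451, of which 96.1% did. An ELF7 summit was found in 2237 genes, 8.15% of all protein-coding genes, and an SSRP1 summit in 4771 genes, 17.4%. Both factors were found in 7.77% of all protein-coding genes, SSRP1 only in 9.61% and ELF7 only in 0.379%. SSRP1 was present in 95.4% of the ELF7 genes (exact Clopper-Pearson 95% interval 94.4 to 96.2), and ELF7 in 44.7% of the SSRP1 genes (43.3 to 46.1). These intervals, like all that follow, cover counting error within a list and no error between libraries. The share of SSRP1 genes with ELF7 was alike on the 5 chromosomes, between 43.3% on chromosome 2 and 46.2% on chromosome 1. The overlap moved with the length of the lists. With the SSRP1 list shortened to its 2687 strongest summits, SSRP1 was present in 71.9% of the ELF7 genes and ELF7 in 62.4% of the SSRP1 genes, so that more than 50% of each then held the other factor. The classes were then 1608 genes with both, 967 with SSRP1 only and 629 with ELF7 only. With scores of at least 5 or at least 10 required in both lists, ELF7 was present in 27.7% or 14.3% of the SSRP1 genes.

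The stronger the SSRP1 summit of a gene, the more often the gene also held ELF7. The score used here is the authors' own, the −log10 of the q-value of each summit, and it ranks summits within a list only. In each list the lowest score was 2.0. Weaker candidate summits, just outside that limit, were not analysed here. Of 300 genes whose strongest SSRP1 summit scored 2 to 3, 22.0% held ELF7, and of 1056 genes with a score of 3 to 5, 19.7% did. The share was 37.3% of 1861 genes at 5 to 10, 70.3% of 1235 genes at 10 to 20, and 93.1% both of 247 genes at 20 to 30 and of 72 genes at 30 or more. The classes below 5 thus had about the same share, and the rise lay between scores of 5 and 20. In the other direction the shares were high throughout, from 91.2% of 407 ELF7 genes at scores of 2 to 3 to all 239 ELF7 genes at scores of at least 10. Across the 2133 genes with both, the strongest scores of the 2 factors were moderately correlated (Spearman's rho = 0.484, Pearson's r = 0.578). Both lists share the S2P libraries.

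**Figure D1:**
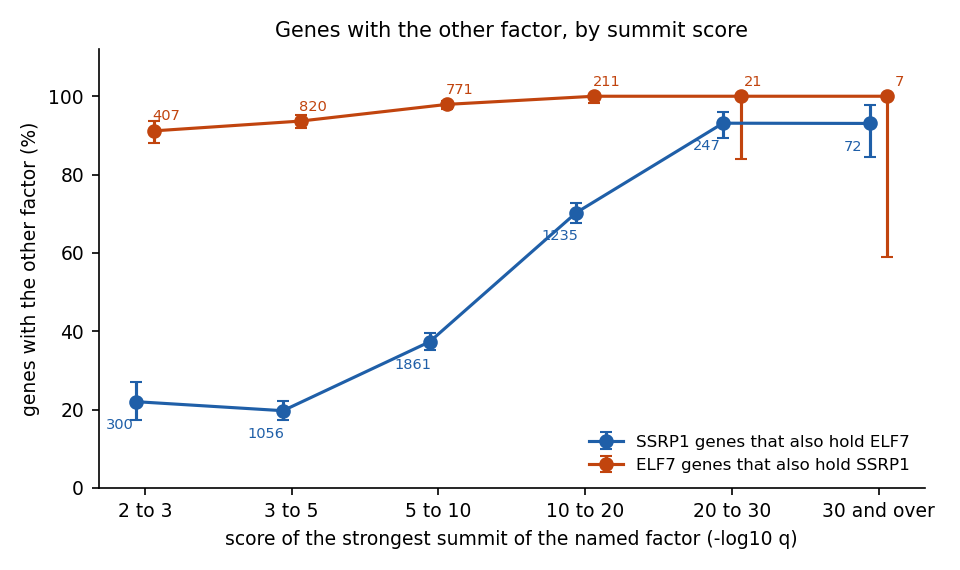
Share of genes that also held a summit of the other factor (y axis, %), by the score of the gene's strongest summit of the named factor (x axis, −log10 q, classes). Points are shares over genes, bars are exact Clopper-Pearson 95% intervals, and the small digits are the numbers of genes; the SSRP1 line climbs from 22.0% to 93.1%, while the ELF7 line stays at or above 91.2%.

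Genes with both factors and genes with SSRP1 only differed little in length, but the SSRP1 summit was weaker and nearer to a gene end where ELF7 was not called. Median gene length was 2197 bp with both, 2260 bp with SSRP1 only and 2398.5 bp with ELF7 only, against 2078 bp for all protein-coding genes. The median SSRP1 score was 10.7 with both (quartiles 6.76 and 16.2) and 5.67 with SSRP1 only (4.09 and 7.99). The distance of the strongest SSRP1 summit from the nearer gene end, here called its depth, had a median of 522 bp with both (95% interval 510 to 536) and 429 bp with SSRP1 only (420 to 439). This difference in depth was also seen within classes of SSRP1 score. In genes of at least 1500 bp, the median SSRP1 depth was 724.5 bp with both and 514.5 bp with SSRP1 only at scores of 2 to 5. It was 624 bp against 433 bp at 5 to 10, and 531 bp against 413 bp at 10 to 20. At scores of 20 or more it was 504 bp against 436 bp, where 13 such SSRP1-only genes were left and their interval, 277 to 853 bp, held the other value.

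The lists that had no part in choosing the genes showed further differences between the classes. SPT16 over S2P, the other FACT subunit, had a summit in 18.9% of all protein-coding genes, in 98.5% of genes with both, in 86.3% with SSRP1 only and in 54.8% with ELF7 only. SPT5, which travels with RNAPII together with SPT4, had a summit over S2P in 0.838% of all genes. It had one in 187 genes with both (8.77%), in 29 with SSRP1 only (1.10%) and in 5 with ELF7 only (4.81%). Both of these lists were read as sharing the S2P libraries, and the SPT5 share also moved with the SSRP1 score. Within classes of SSRP1 score, SPT5 was found in 2.92% of genes with both and 0.370% with SSRP1 only at 2 to 5, and in 3.17% and 0.943% at 5 to 10. The shares were 8.87% and 3.27% at 10 to 20, and 26.9% and 9.09% at 20 or more, the last being 2 of 22 genes. At each level of SSRP1 score the share was higher where ELF7 was also called.

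Over S5P, the lists of SPT16 and SPT5 share neither factor nor RNAPII libraries with the comparison. SPT16 had a summit in 17.3% of all protein-coding genes, in 78.3% of genes with both, in 63.0% with SSRP1 only and in 37.5% with ELF7 only. Within classes of SSRP1 score, the gap between the first 2 classes was 58.8% against 50.3% at 2 to 5 and 72.9% against 68.9% at 5 to 10. It was 83.3% against 80.1% at 10 to 20 and 94.3% against 90.9% at 20 or more, the last share from 22 genes. The exact 95% intervals of the 2 classes overlapped at each level, and both shares rose with the SSRP1 score. SPT5 over S5P, in 6.13% of all genes, was found in 9.80% of genes with both, 9.29% with SSRP1 only and 13.5% with ELF7 only, so that this list separated the first 2 classes little. SSRP1 over S5P, in 12.3% of all genes, was found in 74.1%, 57.4% and 8.65% of the 3 classes, and ELF7 over S5P, in 1.92% of all genes, in 23.4%, 0.341% and 10.6%. The last pair of lists was read as sharing the libraries of SSRP1 or ELF7 with the lists that chose the genes, so their order was partly built in.

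Among the genes with both, 10 are described here that had the best combined rank in both lists. GRP7, a clock-regulated glycine-rich RNA-binding protein, had the highest ELF7 score, 52.2 at position 9265327 of chromosome 2 (TAIR10), and an SSRP1 score of 56.4 at 9265808. The SSRP1 summit thus lay near the middle of this gene of 1474 bp, and the ELF7 summit 481 bp away, toward 1 of its ends. XTH9, an enzyme that cuts and rejoins xyloglucan in the cell wall, had an ELF7 score of 51.4 at position 1416852 of chromosome 4 and an SSRP1 score of 37.7 at 1416649. LCR69, a small cysteine-rich protein of the defensin kind, scored 35.2 for ELF7 and 55.3 for SSRP1, with summits 279 bp apart. In CP29, a chloroplast RNA-binding protein, with scores of 32.0 and 40.2, the summits stood 13 bp apart. In ADS2, a fatty acid desaturase, with scores of 30.1 and 39.9, they stood 2 bp apart, at 13372971 and 13372969 of chromosome 2. The other 5 of the 10 genes with the best combined rank were AT5G50450, the glycosyltransferase gene LGT8, the sugar transporter gene ERD6, AT4G14270 and OEP6, which codes for a protein of the chloroplast outer envelope. Among these 10 genes ELF7 lay deeper than SSRP1 in 3 (AT5G50450, LGT8 and ERD6) and SSRP1 lay deeper in 7. In ADS2, CP29 and AT4G14270, which are among the 7, the depths differed by only 2, 13 and 29 bp. Over the genes with both as a whole, given below, ELF7 was more often the deeper factor.

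**Figure D2:**
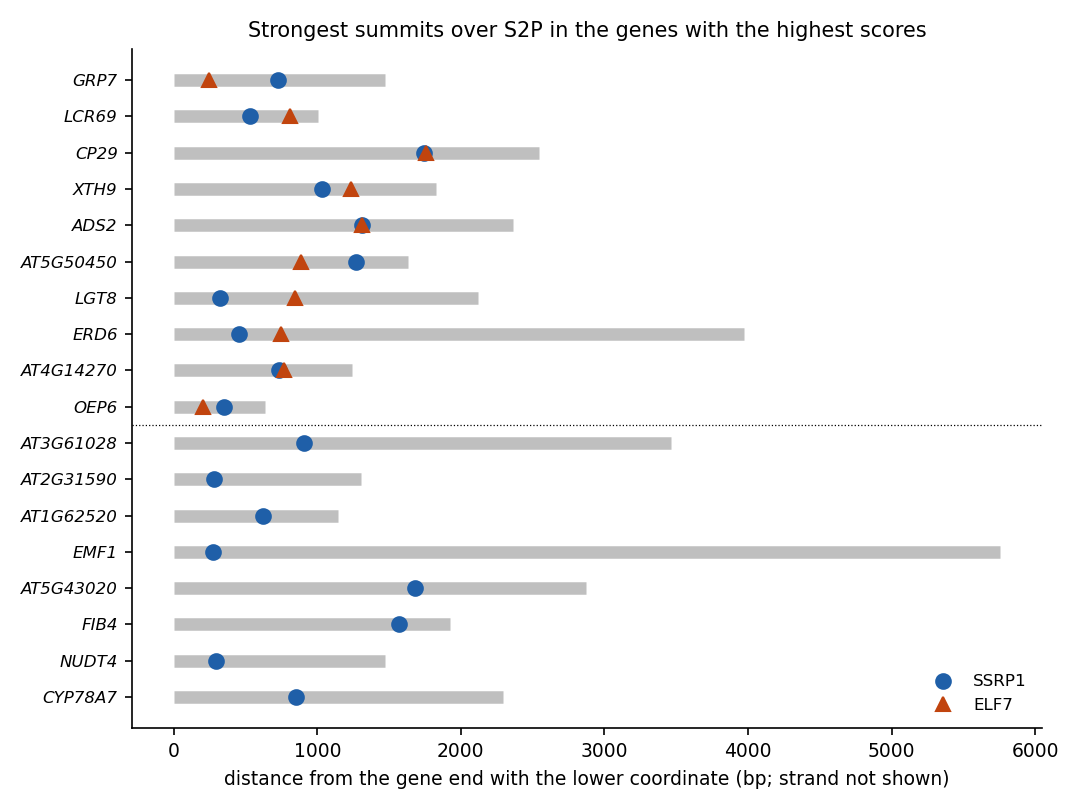
Position of the strongest summit of each factor (x axis, bp from the gene end with the lower coordinate; circles SSRP1, triangles ELF7) in 18 genes, drawn to scale as grey bars. Above the dotted line stand the 10 genes with both factors and the best combined rank, where spacing runs from 2 bp in ADS2 to 522 bp in LGT8; below it stand the 8 SSRP1-only genes with the highest scores.

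A small number of genes held a strong SSRP1 summit without any ELF7 call. At SSRP1 scores of at least 20 there were 319 genes, of which 22 (6.90%) had no ELF7 summit, and 21 of these 22 had an SPT16 summit over S2P. The highest SSRP1 score in a gene without ELF7 was 62.5, in AT3G61028 on chromosome 3 at position 22582379. It was the highest of any gene, and the 1 summit above it, with 63.8, lay outside protein-coding genes. AT2G31590 followed with 52.6 and AT1G62520 with 35.8. EMF1, which keeps flowering genes silent together with Polycomb proteins, had an SSRP1 score of 33.5 at 277 bp from a gene end of this gene of 5758 bp, and an SPT16 score of 47.9 at 318 bp from the same end. FIB4, a plastid lipid-associated protein of the fibrillin family, scored 27.5 for SSRP1 and 27.7 for SPT16. The gene without an SPT16 summit over S2P was CYP78A7, a cytochrome P450 gene with an SSRP1 score of 24.9. NUDT4, a Nudix hydrolase gene, scored 25.5 for SSRP1 and 7.53 for SPT16. The SPT16 scores of the 21 genes ran from 3.501 in ALP, named after its value was seen, to 53.8 in AT2G31590. The nearest ELF7 summit to any of the 8 strongest SSRP1-only summits was 5416 bp away, from the one in FIB4. Over all 2638 SSRP1-only genes the nearest ELF7 summit was at a median distance of 16844 bp. In 15 of these genes (0.569%) an ELF7 summit lay outside the gene but within 500 bp of its ends.

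The 104 genes with ELF7 only had low ELF7 scores, and part of them lay beside an SSRP1 summit. Their median ELF7 score was 3.62 and the highest 8.60, whereas genes with both had a median of 4.74 (quartiles 3.39 and 6.97). Another gene overlapped 31.7% of them, against 22.7% of genes with both, 26.9% with SSRP1 only and 24.9% of all genes. An SSRP1 summit lay within 500 bp of the gene ends in 18 (17.3%), and in 11 the ELF7 summit itself also lay in an overlapping gene that held both factors. SPT16 over S2P was present in 57. This left 34 genes with neither SPT16 nor a near SSRP1 summit. Of the 8 with the highest ELF7 scores, AT4G30662, AT5G24460, AT3G52075, AT1G04230 and AT1G21313 had an SSRP1 summit between 312 and 492 bp from the ELF7 summit. AGP2, an arabinogalactan protein gene with an ELF7 score of 7.96, and AT2G43150, with 6.62, had none within 10992 bp and 25400 bp. AT3G44635, with 6.04, had none within 2894 bp. The ELF7 summits of AT3G44635, AT4G30662, AT3G52075, AT1G04230 and AT1G21313 also lay in an overlapping gene that held both factors.

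In genes with both, the strongest summits of the 2 factors stood a median of 252 bp apart (95% interval 234 to 266), and ELF7 most often lay deeper in the gene. The spacing had quartiles of 95 and 509 bp and reached 6140 bp, in a gene that overlaps another gene. It was at most 100 bp in 563 genes (26.4%), at most 250 bp in 49.7% and above 1000 bp in 104 genes (4.88%), and in 9 genes both summits stood at the same base. Spacings of 0 to 50 bp were the most frequent class of that width, with 14.9% of genes, and the classes of 50 bp that followed up to 300 bp held fewer and fewer. ELF7 lay farther from the nearer gene end than SSRP1 in 1537 genes (72.1%, 95% interval 70.1 to 74.0). Its median depth was 750 bp (731 to 766) against 522 bp for SSRP1. The difference of the depths within a gene, ELF7 minus SSRP1, had a median of 131 bp, with quartiles of −16 and 387 bp. In 1622 genes (76.0%) the gene centre did not separate the summits, which then lay on the same side. On the same side the median spacing was 191 bp, and ELF7 was deeper in 74.7%; on opposite sides the spacing was 472 bp, the median gene length 1825 bp, and ELF7 was deeper in 63.6%.

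**Figure D3:**
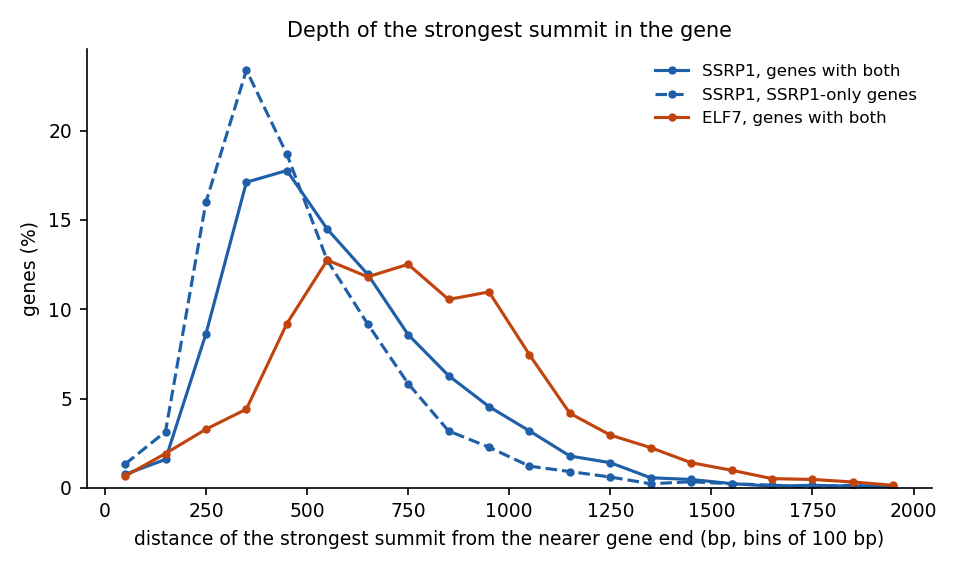
Distribution of the distance from the strongest summit to the nearer gene end (x axis, bp, bins of 100 bp) as a share of the genes of each class (y axis, %). SSRP1 is densest at 300 to 500 bp, in genes with both and in SSRP1-only genes, while ELF7 in genes with both has a broad top from 500 to 1000 bp.

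Which gene end is the start of transcription was not analysed here, since the gene table used holds no strand, and a depth counts from whichever end is nearer to each summit. Measured from 1 fixed end, the one nearer to SSRP1, ELF7 was farther in 80.8% of genes (median 822 bp against 522 bp). From the end nearer to ELF7, ELF7 was still farther in 56.8% (750 bp against 613 bp). The choice of the end favours ELF7 in the first case and SSRP1 in the second.

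The same order was found with SPT16, the other FACT subunit, in place of SSRP1. All comparisons with ELF7 given here were read as resting on the same ELF7 libraries, so they are not independent of each other. ELF7 over S2P was deeper than SPT16 over S2P in 66.5% of 2158 genes, at a median spacing of 204 bp. Against SPT16 over S5P, with which it shares no library, it was deeper in 73.4% of 1709 genes, at 317 bp. Over S5P, ELF7 was deeper than SSRP1 in 70.4% of 490 genes, at 407 bp, and deeper than SPT16 in 65.7% of 496 genes, at 367.5 bp. The 2 FACT subunits stood closer to each other than to ELF7: SPT16 and SSRP1 over S2P were a median of 86 bp apart in 4378 genes, with SPT16 deeper in 56.7% and both on the same side in 86.7%. SPT5 over S2P was deeper than SSRP1 in 36.1% of 216 genes, at 149 bp, and ELF7 was deeper than SPT5 in 69.8% of 192 genes, at 293.5 bp. In the 2101 genes with ELF7, SSRP1 and SPT16 over S2P, ELF7 was deepest in 1202 (57.2%), SPT16 in 497 (23.7%) and SSRP1 in 390 (18.6%), with 12 ties. The median depths were 750 bp for ELF7, 587 bp for SPT16 and 523 bp for SSRP1.

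How often ELF7 was deeper moved with the SSRP1 score more than with the ELF7 score. It was deeper in 56.1% of 66 genes with an SSRP1 score of 2 to 3, 61.5% of 208 at 3 to 5, 70.7% of 694 at 5 to 10, 74.8% of 868 at 10 to 20 and 78.1% of 297 at 20 or more. Over the same classes the median SSRP1 depth went from 704.5 to 489 bp, so that strong SSRP1 summits stood nearer to a gene end. By ELF7 score the shares were 71.7%, 75.3%, 71.0%, 65.9% and 64.3%, the last from 28 genes with an interval of 44.1% to 81.4%. Over the 2133 genes, the spacing itself followed the ELF7 score weakly and the SSRP1 score hardly at all (Spearman's rho −0.074 and −0.006). By ELF7 score its median was 254, 301, 225, 201 and 179.5 bp over the same classes. By SSRP1 score it was 221.5, 292.5, 248.5, 250 and 258 bp.

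The order and spacing of the summits moved with gene length. In 131 genes shorter than 1000 bp, ELF7 was deeper in 38.2% (29.8 to 47.1), so that SSRP1 was more often the deeper factor there. With length quintiles in place of fixed bounds, the shortest class, below 1424 bp, gave 50.1% and so no order across that wider class. The share was 56.7% at 1000 to 1500 bp, 69.0% at 1500 to 2000 bp, 78.1% at 2000 to 3000 bp, 83.0% at 3000 to 5000 bp and 84.5% (76.0 to 90.9) in 103 genes of 5000 bp or more. Median spacing widened in the same order, from 96 bp through 146, 221, 344 and 381.5 bp to 444 bp. These are bounded quantities, since a summit in a gene shorter than 1000 bp cannot lie deeper than 50% of that length.

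ELF7 moved inward with length, though little above 3000 bp, while SSRP1 stayed at a nearly constant distance from an end from 1500 bp upward. The median ELF7 depth was 253, 502, 695, 893, 984.5 and 1026 bp over the 6 length classes. The median SSRP1 depth was 289 and 465 bp in the 2 shortest classes and between 562 and 594.5 bp in the 4 others. In genes with SSRP1 only it was between 415 and 472 bp in the 5 classes from 1000 bp upward. Above 3000 bp, neither depth moved much with length any more: over 549 such genes with both, Spearman's rho with length was 0.127 for ELF7 and −0.020 for SSRP1, against 0.666 and 0.298 over all 2133. As a part of gene length, the ELF7 summit lay at 0.318 in the shortest class, at 0.400 at 1000 to 1500 bp and at 0.172 in the longest class, where 0.5 is the gene centre. The SSRP1 summit lay at 0.369, 0.374 and 0.0918 in the same classes, and thus near an end in long genes.

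Whether an SSRP1 gene also held ELF7 varied less with length. The share was 37.8% below 1000 bp, 41.7% at 1000 to 1500 bp, 50.3% at 1500 to 2000 bp, 46.9% at 2000 to 3000 bp, 42.6% at 3000 to 5000 bp and 39.5% at 5000 bp or more. Genes with both made up 2.99% of all protein-coding genes shorter than 1000 bp and between 6.28% and 9.54% of those in the 5 longer classes. Longer genes more often held several ELF7 summits, from none of the genes with both below 1000 bp to 48.5% of those of 5000 bp or more. In the 1613 genes with exactly 1 summit of each factor, ELF7 was deeper in 69.9%, at a median spacing of 225 bp, so the order did not rest on the choice among several summits.

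**Figure D4:**
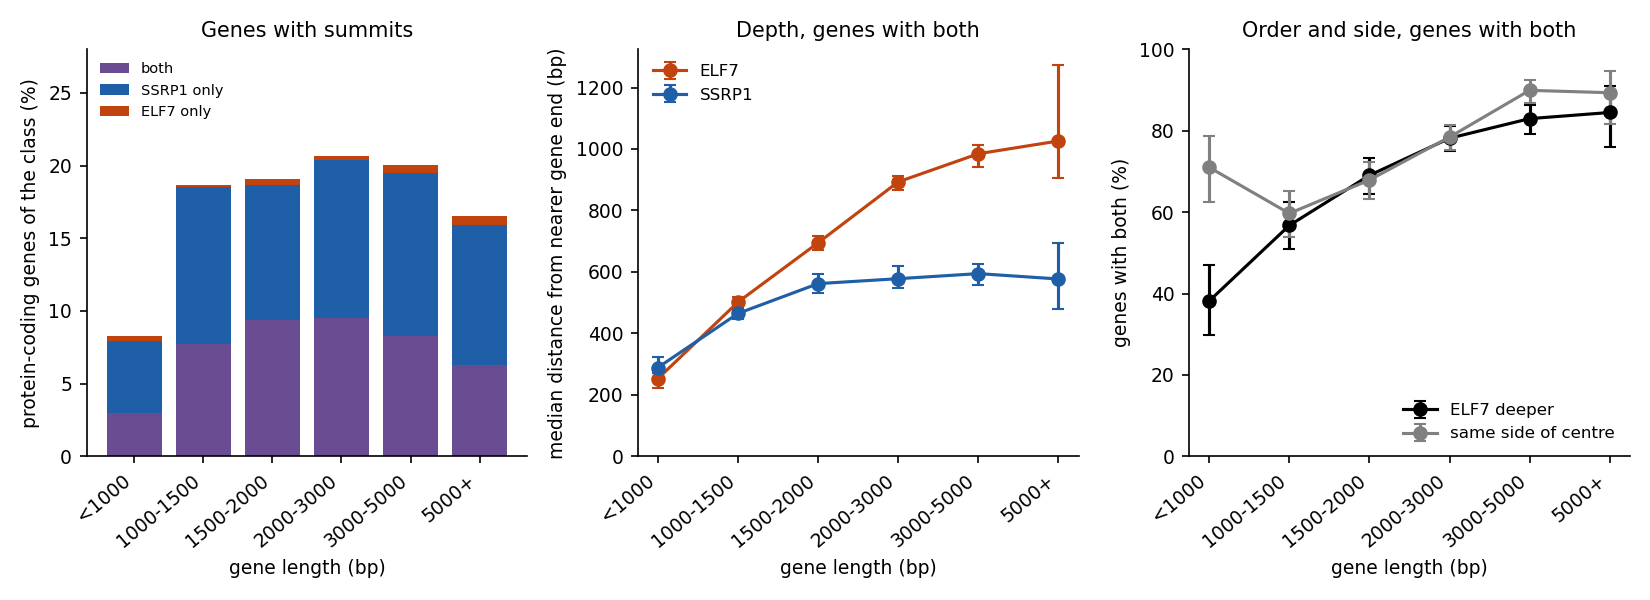
Left, share of all protein-coding genes of a length class (x axis, bp) with both factors, SSRP1 only or ELF7 only (y axis, %, stacked bars); middle, median depth of the strongest ELF7 and SSRP1 summits in genes with both (bp), with binomial order-statistic 95% intervals; right, share of genes with both where ELF7 was deeper, and where both summits lay to the same side of its centre (%), with exact 95% intervals. ELF7 depth climbs from 253 to 1026 bp while SSRP1 depth stays under 600 bp, and the share with ELF7 deeper goes from 38.2% to 84.5%.

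The 5 widest spacings were found in genes of 5021 bp or more, with the summits on opposite sides of the centre. TOC159, the receptor that takes preproteins into chloroplasts, is 7356 bp long. Its strongest ELF7 summit (score 7.19) lay 6140 bp from its strongest SSRP1 summit (31.4), which stood 398 bp from the other end. TOC159 overlaps another protein-coding gene, and whether this ELF7 summit lies in the shared part was not analysed here. SEX1, which phosphorylates starch so that it can be broken down, is 10099 bp long and held 9 ELF7 and 6 SSRP1 summits. The strongest of them stood 4705 bp apart, with scores of 7.55 and 8.09, and the SSRP1 summit lay far inside the gene, 4111 bp from the nearer end. AT1G15290, emb2734 and RBOHD, the NADPH oxidase of the oxidative burst, followed with 5248, 3635 and 3407 bp. Among genes with scores of at least 10 in both lists, the closest pair was in AOS, the allene oxide synthase of jasmonate synthesis. There both summits stood at 17099031 of chromosome 5, with scores of 11.6 for ELF7 and 27.0 for SSRP1. ADS2 and AT1G28400 followed with 2 bp, the cytochrome P450 gene CYP706A2 with 3 bp and AT1G24530 with 4 bp.

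The functions of the genes were described by 14 groups, which together held 482 genes. Against the 44.7% over all SSRP1 genes, the share of a group's SSRP1 genes that also held ELF7 ran from 82.6% in histone genes to 38.5% in photosynthesis genes and to none of 4 in genes of the transcript elongation machinery. Of all protein-coding genes, 7.77% held both factors, 9.61% SSRP1 only and 0.379% ELF7 only. The shares in the groups are counts over few genes and were not tested. The exact 95% interval of the share of SSRP1 genes with ELF7 held the 44.7% in most groups. It lay above 44.7% for histone, fast stress response, cell wall and growth, cytoskeleton, ubiquitin and translation, and auxin response genes. The SSRP1 score, which the share with ELF7 follows over all genes, differed between the groups as well. Its median over the SSRP1 genes of a group is given with each group.

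Histone genes, which package DNA, had the largest part with both factors. Of 28 members, 19 held both (67.9%, against 7.77% of all protein-coding genes), 4 SSRP1 only and none ELF7 only, with a median SSRP1 score of 8.64. HIS4, a histone H4 gene, scored 13.2 for ELF7 and 19.3 for SSRP1, with summits 219 bp apart on opposite sides of the centre of this gene of 715 bp. HTB11, an H2B gene, scored 10.3 and 15.0, at a spacing of 44 bp. The H3 gene AT5G10400 scored 11.2 and 12.3, at 13 bp. Among the 4 with SSRP1 only, AT4G40030 and AT4G40040 scored 2.02 and 2.07, HTA9 2.64 and GAMMA-H2AX, an H2AX gene, 4.07, all below the group's median. The 19 with both had a median length of 853 bp. ELF7 was deeper in 10 of the 19, and the median spacing was 96 bp, the same as the 96 bp of all genes with both below 1000 bp. Copies of histone genes are alike in sequence, and no source used here says how reads shared between copies were placed.

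Genes that respond fast to stress followed, with 29 of 53 members holding both factors (54.7%, against 7.77% of all genes). Another 9 held SSRP1 only (17.0%, against 9.61%) and 1 ELF7 only (1.89%, against 0.379%). The SSRP1 scores of the group were high, with a median of 13.2. The ethylene response factor genes ERF6 and ERF2 scored 33.9 and 21.8 for ELF7 and 32.2 and 31.4 for SSRP1, with spacings of 89 and 9 bp. AT5G51190, also called ERF105, scored 21.9 and 29.2, at 47 bp. ELF7 was deeper in 24 of the 29, at a median spacing of 206 bp. MYC2, the central transcription factor of jasmonate signalling, scored 7.55 for ELF7 and 21.0 for SSRP1, with the ELF7 summit at 889 and the SSRP1 summit at 694 bp from an end. Not every strong SSRP1 gene of the group held ELF7. LOX3, a lipoxygenase of jasmonate synthesis, scored 16.1 for SSRP1 alone, and the zinc finger gene RHL41 11.7. TIFY10B, a jasmonate repressor of the JAZ family, held ELF7 without SSRP1 over S2P, with a score of 4.48. An SSRP1 summit over S2P lay within 500 bp of its ends, and one over S5P, with a score of 5.46, lay inside it.

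Genes of growth and of the basic equipment of the cell also held ELF7 in most of their SSRP1 genes. Of 54 genes of the cell wall and growth, 27 held both (50%, against 7.77% of all genes) and 11 SSRP1 only (20.4%, against 9.61%). The median SSRP1 score was 8.31. Besides XTH9, XTH4 scored 29.9 for ELF7 and 31.6 for SSRP1, at 201 bp, and EXL5 30.5 and 25.2, at 327 bp. Within the cellulose synthase genes, CESA2, CESA6 and CEV1 held both, whereas CESA1 and CESA5 held SSRP1 only, with scores of 5.95 and 5.45. Of 41 genes of the cytoskeleton, ubiquitin and translation, 20 held both (48.8%) and 8 SSRP1 only (19.5%), with a median SSRP1 score of 9.13. Another 1 (2.44%), the polyubiquitin gene UBQ4 with a score of 3.004, held ELF7 only, with an SSRP1 summit within 500 bp of its ends. In this group ELF7 was deeper in 18 of 20, at a median spacing of 376 bp, and the median length of these genes was 2233.5 bp. TUB8, a beta-tubulin, scored 14.3 and 22.2, at 210 bp, and TUA3, an alpha-tubulin, 12.2 and 15.1, at 497 bp. TUB3, whose near copy TUB2 makes the placing of its reads uncertain, held SSRP1 only with 9.39. Of 19 aquaporin genes, which code for water channels, 9 held both (47.4%) and 3 SSRP1 only (15.8%), with a median SSRP1 score of 10.1. ELF7 was thus in 75% of the aquaporin SSRP1 genes, with an interval of 42.8 to 94.5 that holds the 44.7% of all SSRP1 genes. PIP3 scored 13.6 and 21.6, at 235 bp, and GAMMA-TIP 11.1 and 17.0, at 109 bp. Of 30 genes of auxin response, 14 held both (46.7%), 5 SSRP1 only (16.7%) and 1, IAA29 with a score of 3.03, ELF7 only (3.33%). The median SSRP1 score was 8.96. PIN7, an auxin exporter, scored 16.3 and 28.5, at 56 bp, and AUX1, an auxin importer, 11.04 and 21.2, at 449 bp.

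In genes of defence, cold and light, the share of SSRP1 genes that also held ELF7 stood nearer to the 44.7% over all SSRP1 genes. It was 63.6%, 61.5% and 54.5%, and also 54.5% in clock genes. The interval of each of these shares held the 44.7%. The parts with both and with SSRP1 only were each above those of all protein-coding genes, 7.77% and 9.61%. Of 35 genes of defence and glucosinolate synthesis, 14 held both (40%) and 8 SSRP1 only (22.9%), with a median SSRP1 score of 8.45. MYB51, a regulator of indole glucosinolates, scored 21.8 for ELF7 and 14.9 for SSRP1, with summits 7 bp apart. PAD4, a regulator of salicylic acid defence, held SSRP1 only with 17.7. Of 23 genes of cold and abscisic acid response, 8 held both (34.8%) and 5 SSRP1 only (21.7%), with a median SSRP1 score of 10.01. KIN2 scored 21.1 for ELF7 and 31.8 for SSRP1, at 209 bp, while the cold-regulated gene COR15A held SSRP1 only with 9.003. Of 42 genes of light signalling, 12 held both (28.6%) and 10 SSRP1 only (23.8%), with a median SSRP1 score of 5.83. PAR1, a repressor in shade avoidance, scored 22.8 and 22.5, at 125 bp. The blue light receptor gene PHOT1 scored 4.43 for ELF7 and 21.2 for SSRP1, and its summits lay far inside this gene of 7490 bp, at 2405 and 2154 bp. Of 28 clock genes, 6 held both (21.4%) and 5 SSRP1 only (17.9%), with a median SSRP1 score of 8.03. TOC1 held both, with scores of 3.45 and 9.36, ELF7 at 1128 bp and SSRP1 at 305 bp. In GI, which also held both, the summits stood 2021 bp apart. PRR7, PRR9 and ZTL held SSRP1 only, with scores of 6.74, 5.19 and 6.47.

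Of 53 photosynthesis genes, 10 held both (18.9%, against 7.77% of all genes), 16 SSRP1 only (30.2%, against 9.61%) and none ELF7 only. ELF7 was thus in 38.5% of their SSRP1 genes (20.2 to 59.4, an interval that holds the 44.7% of all SSRP1 genes). The median SSRP1 score was 3.89, the lowest of the 14 groups. The plastocyanin gene PETE1 had the highest ELF7 score of the group, 6.42, with 10.1 for SSRP1, at 52 bp. The ELF7 scores of the other 9 lay between 2.14 for PRK and 3.52 for PSBY. SSRP1-only members included Lhca6, a light-harvesting protein of photosystem I, with 19.0, and NPQ4, which codes for the photoprotection protein PsbS, with 13.8. ELF7 was deeper in 3 of the 10 genes with both, whose median length was 1106.5 bp, at a median spacing of 90.5 bp. Ribosomal protein genes had a median SSRP1 score of 6.36. Of 25 members, 8 held both (32%), 6 SSRP1 only (24%) and 1, SAC52 with a score of 2.08, ELF7 only (4%, against 0.379% of all genes). RPS6 scored 6.87 and 9.50, at 12 bp.

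Of 30 heat shock genes, 4 held both (13.3%, against 7.77% of all genes) and 6 SSRP1 only (20%, against 9.61%). ELF7 was thus in 4 of the 10 SSRP1 genes (40%), with an interval of 12.2 to 73.8 that holds the 44.7% of all SSRP1 genes. The median SSRP1 score of the 10 was 11.5. The HSP90 genes HSP81-3 and HSP81-2, near-identical neighbours whose reads may have been split between them, scored 8.34 and 8.11 for ELF7 and 23.3 and 15.4 for SSRP1. HSC70-1, a constitutive HSP70, scored 3.14 and 18.5, at 543 bp. In all 4 genes with both, ELF7 was the deeper factor. HSF4, a heat shock factor of class B, held SSRP1 only with 12.3, and MBF1C, a heat-induced coactivator, with 10.7.

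Genes for the transcript elongation machinery held summits about as often as all protein-coding genes. Of 22 members, 4 held SSRP1 only (18.18%, against 17.4% of all genes with SSRP1) and 18 neither factor (81.8%, against 82.2%). None held ELF7, against 8.15% of all genes. The 4 were NRPB1, the largest subunit of RNAPII, with an SSRP1 score of 10.5, TFIIS with 7.71, SPT16 with 5.87 and NRPB4 with 3.79. Their median SSRP1 score was 6.79, and their SSRP1 summits lay between 186 and 323 bp from a gene end. Of the genes for the complexes compared here, ELF7, ELF8, PHP, VIP3, VIP4 and VIP5 of the PAF1 complex and HMG, the gene that codes for SSRP1, were in neither list.

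**Figure D5:**
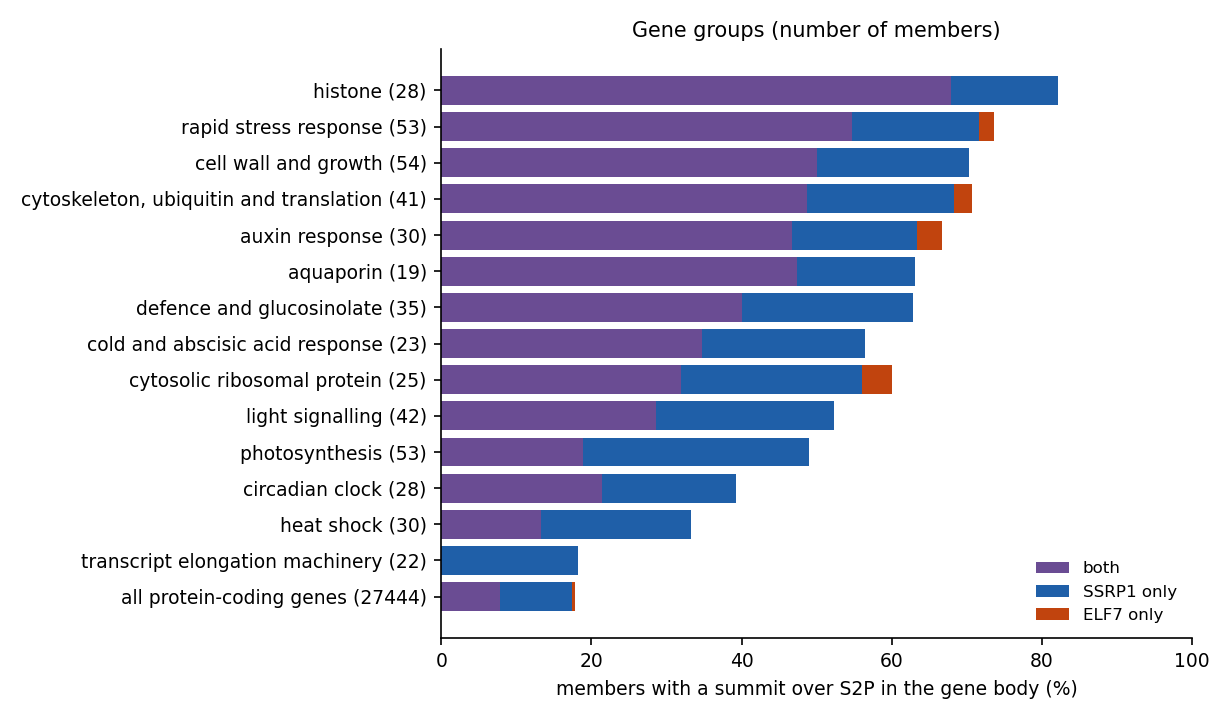
Share of the members of each gene group with a summit of both factors, SSRP1 only or ELF7 only (x axis, %, stacked bars; number of members in brackets), with all protein-coding genes at the bottom. The part with both runs from 67.9% in histone genes to 0 of 22 in the elongation machinery, against 7.77% of all genes.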

How the data were processed

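The submitters' processing notes name MACS3, TAIR10, SAMtools 1.16.1, deepTools, Trimmomatic 0.39 and Bowtie2, with no roles. No source used here states settings, control or pooling of libraries. The deposited files are 8 lists of summits, 1 per factor and RNAPII form. The score deposited by the authors is a −log10 value, read as that of the q-value, since the lowest, 2.0, matches a q of 0.01. No list has a column per library: depth and replicate error are unknown, and no source used here says whether libraries came from separate cultures.

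Summits were counted from 1 and assigned to every protein-coding gene of a RefSeq table (TAIR10.1, matched by locus tag, no coordinates printed) that they lay in. The strongest summit per gene was used. Of 526 group entries, 506 matched. Members and lists were chosen with earlier results of these data known. Named genes were the 10 best rank sums with both, the 8 highest scores with SSRP1 only and with ELF7 only, the 5 widest and 5 narrowest gaps, and up to 5 per group. Other members were named after their values were seen. Alternatives changed score limits, list length, gene bounds, the choice of summits and length classes. Medians have binomial order-statistic 95% intervals. Python 3.11.15, pandas 2.3.3 and scipy 1.17.1 were used, and scripts were tested on simulated data.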

Additional observations from a re-analysis of the deposited data

How the results depend on the processing

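Limits: the lists hold calls only, so leaving out a library was not run and no replicate error exists. No paired analysis was possible because the lists have no column per library. ELF7 and SSRP1 share the S2P libraries, strand was not analysed, and the length of a list depends on depth, which is unknown. The cause of the changes below was not tested, other than that fewer summits or genes enter.

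Of 80 planned repeats, 43 stayed within the limits set for a change. With scores of at least 5 in both lists, 946 genes held both and 64 ELF7 only, SSRP1 was in 93.7% of ELF7 genes and ELF7 in 27.7% of SSRP1 genes, the spacing was 210 bp (54.7% within 250 bp), the depth difference 102 bp, and 77.9% were on the same side. At 10 the values were 222 with both, 1332 with SSRP1 only, 17 with ELF7 only, 92.9%, 14.3%, 198 bp, 57.7% and 91.5 bp, and ELF7 was deeper in 67.6%. The shortened SSRP1 list left 967 genes with SSRP1 only, 629 with ELF7 only and shares of 71.9% and 62.4%, so that genes with both (1608) then outnumbered those with SSRP1 only. With 500 bp added on each side of a gene, 42.4% of SSRP1 genes held ELF7.

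With the SSRP1 summit nearest to ELF7 the spacing was 227 bp (53.2% within 250 bp), ELF7 was deeper in 69.4% and the depth difference was 109 bp. With 1 summit of each the values were 225 bp, 53.6%, 69.9% and 105 bp. Genes of at least 2000 bp gave 363 bp, 38.8%, 80.4% and 258 bp, with 83.4% on the same side. With both summits at least 100 bp from the gene centre, chosen after seeing the data, they were 274 bp, 47.1%, 77.0% and 163 bp, with 83.4% on the same side. In the shortest length quintile, below 1424 bp, ELF7 was deeper in 50.1%, at 122 bp, against 38.2% below 1000 bp. This quintile also holds genes of 1000 bp and more, so it does not test the order below 1000 bp. ELF7 was deeper in more than 50% of genes with both under each of the other alternatives run for it (67.6% to 80.4%). All 14 group counts of genes with both stayed within 1.5 times with 500 bp added.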
